A study of Mus musculus with 4 samples.

Results

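The genes described here encode amino acid and peptide transporters, carriers that move amino acids, di- and tripeptides and related small molecules across the plasma membrane or the lysosomal membrane. Members were all genes whose symbol begins with Slc1a, Slc3a, Slc6a, Slc7a, Slc15a, Slc36a, Slc38a or Slc43a followed by a digit and that had a probe set annotated to 1 symbol. The rule gave 69 of the 19938 genes measured with such probe sets, 5 of them in the Slc15 peptide transporter family and 64 in the other families. The symbols also took in 2 genes that are not carriers by name, Slc6a19os and Slc7a6os, which are named for their place opposite a carrier gene.

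RNA was measured on Affymetrix arrays in cDC2 sorted from the spleens of chimeric mice that carry the Zbtb46-GFP reporter, in which green fluorescent protein reports the dendritic cell transcription factor gene Zbtb46. Of the 4 arrays, 2 were labelled WT and 2 were labelled Id2 KO, for the loss of Id2. Id2 is a helix-loop-helix protein that binds E proteins and keeps them from DNA, and cDC2 are conventional dendritic cells that take up, cut and present antigen mainly to CD4 T cells. The allele of the knockout, the age of the mice, the way the chimeras were made and which host cells remained were not given in the sources used here, and the design text also names bone marrow beside spleen. Whether replicates came from separate mice was not stated either. The p-values therefore reflect the spread between single arrays, and that spread may be technical. Below, Id2 KO stands for the arrays with that label.

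The difference in Id2 was -0.27 on the log2 scale and did not pass (adjusted p = 0.172), with a single probe set whose place relative to the deletion is not known here. Xist differed by -5.28 and Y-linked Kdm5d by 2.66, so the groups also differed in sex-linked expression. For genes on every chromosome, transporter genes included, genotype and the sex of the cells cannot be told apart. Over all 11963 tested genes 8.04% passed in the fit described below, 5.53% with Id2 KO higher and 2.52% with Id2 KO lower. The marker counts that follow are to be read beside these shares. Of the cDC2 markers, Itgam, Cd4 and Zbtb46 were lower, Esam was higher and the other 7 of the 11 tested did not pass. Neutrophil markers were lower in 12 of 12 tested genes, with a summed intensity of 18320 and 18990 on the WT arrays and of 1709 and 2603 on the Id2 KO arrays. Proliferation markers were higher in 15 of 16, with sums of 10080 and 10130 in WT and of 22250 and 17630 in Id2 KO. B cell markers were higher in 8 of 9, with sums of 1470 and 1446 in WT and of 2766 and 3212 in Id2 KO. Monocyte and macrophage markers were lower in 5 of 9, with sums of 7381 and 7673 in WT and of 6293 and 6388 in Id2 KO, and markers of pDC, dendritic cells known for secreting type I interferon, were higher in 5 of 8, with sums of 2445 and 2408 in WT and of 3067 and 2889 in Id2 KO. Erythroid markers were lower in 2 of 3, with sums of 942.8 and 911 in WT and of 504.3 and 503.4 in Id2 KO, and 1 of 5 T and NK cell markers and 1 of 4 cDC1 markers (Tlr3) were lower. Of the pDC markers, Ly6d (1.31), Blnk (1.20), Spib (1.07), Siglech (0.56) and Pacsin1 (0.34) passed. Bst2 (0.04), Tcf4 (-0.07) and Ccr9 (-0.16) did not. Of the monocyte and macrophage markers, Chil3 (-2.02), Cd14 (-0.88), Lyz2 (-0.72), Vcam1 (-0.48) and Adgre1 (-0.34) passed. Csf1r (0.04), Cx3cr1 (0.09), Cd68 (-0.06) and Spic (-0.15) did not. Whether the pDC rise was separate from the B cell rise, or the monocyte fall from the neutrophil fall, was not tested. The part of any marker list in the transporter results below was not tested. In sorted bulk samples, fewer cells of a type and less RNA per cell cannot be told apart.

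Amino acids enter cells through carriers that differ in what drives them. Exchangers of the Slc7 family pair with a heavy chain of the Slc3 family, and the Slc1, Slc6 and Slc38 families use the sodium gradient. The Slc15 family and several Slc36 carriers use protons, and several of these work in acidic endosomes and lysosomes. In dendritic cells the lysosomal peptide and histidine carriers Slc15a3 and Slc15a4 are known for their place beside endosomal Toll-like receptors and NOD receptors, which sense nucleic acids and bacterial cell wall peptides. Activated and dividing leukocytes are known to depend on the uptake of glutamine, leucine and other neutral amino acids through Slc1a5 and the pair of Slc7a5 and Slc3a2.

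Of the 69 members, 35 had a mean log2 intensity above 6.77, the 40th percentile of all genes, and were tested. The other 34 lay below it and were not tested. Id2 KO minus WT was fitted with limma across 11963 genes, and a gene was called when its Benjamini-Hochberg adjusted p was below 0.05. Compared with WT, 3 of the 35 tested members rose (Slc43a3, Slc36a4 and Slc6a6), 4 fell (Slc15a2, Slc6a12, Slc43a1 and Slc6a9) and 28 did not pass. The called share was 20% of the tested members, beside 8.04% of all tested genes, of which 5.53% rose and 2.52% fell. Of all called genes 68.7% rose. This split was 72.5% with arrays centred on their medians, where 3 transporter genes rose and 4 fell. It was 59.3% with renewed quantile normalization, where 2 transporter genes rose and 5 fell. With each array centred on the median of the tested genes it was 54.9%, again with 2 that rose and 5 that fell. That last alternative was chosen after seeing the data. The median difference over the tested members was -0.07, beside 0.01 over all tested genes. Negative differences were found in 24 of the 35 members and in 5726 of all 11963 tested genes. The values of the 2 groups did not overlap in 6 members that were higher and 11 that were lower in Id2 KO. Over all tested genes 50.7% had no overlap, 27.9% with Id2 KO higher and 22.8% with Id2 KO lower, so separate groups alone were no more common among the members than elsewhere. Among the tested members, 3 (Slc15a2, Slc7a4 and Slc7a10) had a mean above the filter level in WT only.

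**Figure D1:**
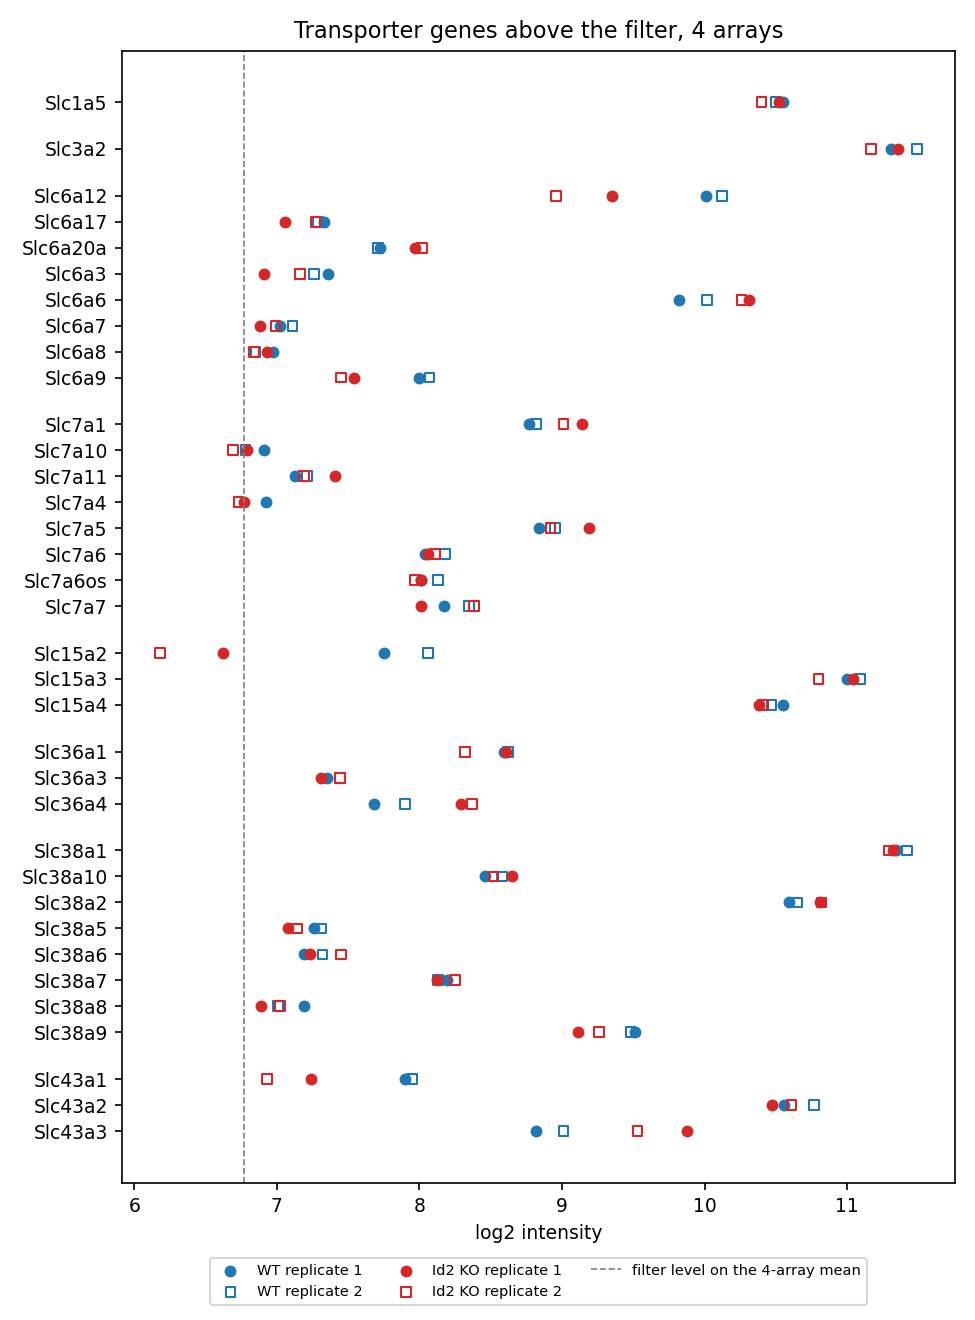
Log2 intensity (horizontal axis) of the 35 tested transporter genes (rows, grouped by family) on each of the 4 arrays, with circles for replicate 1, squares for replicate 2, blue for WT and red for Id2 KO. The dashed line is the filter level of 6.77, and intensities of different probe sets do not rank genes; Slc15a2 lies at 7.75 and 8.06 in WT and at 6.62 and 6.18 in Id2 KO.

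Among the peptide transporters, Slc15a2 fell while the differences of Slc15a3 and Slc15a4 did not pass. Slc15a2 (PepT2) is a plasma membrane carrier that brings di- and tripeptides, including bacterial ones, into the cell with protons. Its log2 intensity was 7.75 and 8.06 on the WT arrays and 6.62 and 6.18 on the Id2 KO arrays. The groups were far apart, with the higher Id2 KO value more than 1 unit below the lower WT value. The mean fell from 7.90 ± 0.22 to 6.40 ± 0.31 (SD, n = 2 each), a difference of -1.51 (95% interval -1.85 to -1.16; 2.84-fold lower; adjusted p = 3.83e-04). Both Id2 KO values lay below the filter level and no background was measured, which leaves the true size of the fall unknown.

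Slc15a3 (PHT2), a lysosomal peptide and histidine carrier, was at 11.00 and 11.09 in WT and at 11.04 and 10.80 in Id2 KO. The groups overlapped, and the difference of -0.12 (95% interval -0.35 to 0.10) did not pass (adjusted p = 0.552). Slc15a4 (PHT1), the lysosomal carrier needed for signalling from Toll-like receptors 7 and 9 in dendritic cells, was at 10.55 and 10.47 in WT and at 10.38 and 10.41 in Id2 KO. Its groups did not overlap, but they lay close together, and the difference of -0.11 (95% interval -0.29 to 0.07) did not pass (adjusted p = 0.499). These intervals leave room for a fall of up to 0.35 in Slc15a3 and 0.29 in Slc15a4. The intestinal and renal carrier gene Slc15a1 (5.73 and 5.57 in WT, 5.58 and 5.78 in Id2 KO) and Slc15a5 (5.97 and 5.82 in WT, 5.93 and 5.95 in Id2 KO) lay below the filter on every array. Set beside the family, the other 32 tested members had 3 genes that rose and 3 that fell, a median difference of -0.07 and a range from -0.91 to 0.79.

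The promoters of 3 members that fell are shown as examples of windows with no match to the motifs searched, with CACGTG and GAGGAAGT, and with CAGCTG. The sequences are RefSeq's for GRCm38.p6, 270 bases from 250 before to 20 after an annotated start, 5′ to 3′ on the gene's strand, with motif matches in capitals. Slc15a2 is at chr16:36784943-36785212 on the minus strand, Slc43a1 at chr2:84840073-84840342 on the plus strand, and 1 of the 5 listed Slc6a12 promoters at chr6:121342653-121342922 on the plus strand.
Slc15a2: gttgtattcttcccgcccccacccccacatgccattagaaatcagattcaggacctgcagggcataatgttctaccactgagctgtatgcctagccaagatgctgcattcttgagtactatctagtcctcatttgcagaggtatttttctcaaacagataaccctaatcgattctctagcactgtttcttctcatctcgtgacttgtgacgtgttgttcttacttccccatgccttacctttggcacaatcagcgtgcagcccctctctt
Slc43a1: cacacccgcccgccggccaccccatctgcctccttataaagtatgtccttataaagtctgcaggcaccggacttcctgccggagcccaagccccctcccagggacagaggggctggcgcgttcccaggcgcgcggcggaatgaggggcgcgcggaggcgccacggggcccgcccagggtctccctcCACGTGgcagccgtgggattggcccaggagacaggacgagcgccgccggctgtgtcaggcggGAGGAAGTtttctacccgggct
Slc6a12: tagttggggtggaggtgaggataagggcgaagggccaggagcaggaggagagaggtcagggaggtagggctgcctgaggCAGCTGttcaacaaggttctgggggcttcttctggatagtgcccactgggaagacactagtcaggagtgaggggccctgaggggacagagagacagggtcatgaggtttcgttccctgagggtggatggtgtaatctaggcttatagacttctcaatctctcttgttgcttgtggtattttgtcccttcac

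In 300 bases around each start, 5 motifs were searched on both strands: the E-box CAGCTG and the E-box CAGGTG (letters bound by E proteins, the partners of Id2), the E-box CACGTG (bound by MYC and TFEB, among others), TGATGNAA (the amino acid response element bound by ATF4) and GAGGAAGT (a core of PU.1 sites). None of these letters occurred in the Slc15a2 window. The Slc43a1 window held CACGTG beginning 64 bases before the start and GAGGAAGT beginning 2 bases before it, and the Slc6a12 window shown held CAGCTG beginning 171 bases before the start. The same CAGGTG site lay in 2 overlapping windows of the 5 listed for Slc6a12, and the other 2 held no match. None of the motifs occurred in the 3 windows of Slc6a9, which also fell, or in the window of Slc36a4, which rose. Slc43a3 and Slc6a6, the other members that rose, and Slc15a3 had no listed promoter and were not searched. Of the 35 tested members, 26 were in the promoter table, with 40 windows. Windows of the same gene can overlap, so a site can be counted more than once in the shares below. CAGCTG was present in 12.5% of these windows and in 16.3% of all 32851 promoters, CAGGTG in 22.5% and 20.2%, CACGTG in 12.5% and 7.15%, TGATGNAA in 7.5% and 3.97%, and GAGGAAGT in 2.5% and 3.2%. Such matches are descriptions of these windows and do not show that a factor binds.

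The Slc6 family of sodium- and chloride-coupled carriers held 3 of the 7 changed members. Slc6a12 (BGT1), which takes up betaine and GABA, was at 10.01 and 10.12 in WT and at 9.35 and 8.96 in Id2 KO. Both Id2 KO arrays were lower, with Id2 KO replicate 2 the lowest of the 4. The difference was -0.91 (95% interval -1.19 to -0.63; 1.88-fold lower; adjusted p = 0.00216). Slc6a9 (GlyT1), a glycine carrier, was at 8.0 and 8.07 in WT and at 7.54 and 7.45 in Id2 KO. The replicates were close together within both groups, and the difference of -0.54 (95% interval -0.73 to -0.36; 1.46-fold lower) passed (adjusted p = 0.00383).

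Slc6a6 (TauT), the taurine carrier, was at 9.82 and 10.02 in WT and at 10.31 and 10.26 in Id2 KO. The groups were separate, and the rise of 0.37 (95% interval 0.16 to 0.58; 1.29-fold) was just past the threshold (adjusted p = 0.0445). This call was lost under 7 alternatives, among them without WT replicate 1 (adjusted p = 0.335), without Id2 KO replicate 1 (adjusted p = 0.131), without Id2 KO replicate 2 (adjusted p = 0.0595), with no filter (adjusted p = 0.081), with renewed quantile normalization (adjusted p = 0.0558) and with arrays centred on the tested genes (adjusted p = 0.0599). Slc6a20a, a proline and imino acid carrier gene, was at 7.72 and 7.71 in WT and at 7.97 and 8.02 in Id2 KO, a difference of 0.28 (95% interval 0.10 to 0.46) just short of the threshold (adjusted p = 0.0682). Slc6a3, the dopamine transporter gene, was at 7.36 and 7.26 in WT and at 6.91 and 7.16 in Id2 KO. Its groups were separate but close, and the difference of -0.28 (95% interval -0.51 to -0.05) did not pass (adjusted p = 0.156). Without Id2 KO replicate 2 it passed (-0.41, adjusted p = 0.0339). The proline carrier gene Slc6a7 (-0.13), Slc6a17 (-0.15) and the X-linked creatine carrier gene Slc6a8 (-0.02) did not pass. Slc6a12 and Slc6a13, a GABA carrier gene, are neighbours in the gene table, and Slc6a13 lay below the filter at 6.56 and 6.48 in WT and at 6.36 and 6.49 in Id2 KO.

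The Slc43 family held a fall and a rise in a pair of near neighbours on chromosome 2. Slc43a1 (LAT3), a facilitator for leucine and other large neutral amino acids, was at 7.90 and 7.95 in WT and at 7.24 and 6.93 in Id2 KO. It was lower on both Id2 KO arrays, with a mean difference of -0.84 (95% interval -1.09 to -0.59; 1.79-fold lower; adjusted p = 0.00166). Slc43a3, whose product is known to carry purine nucleobases and not amino acids, was at 8.82 and 9.01 in WT and at 9.88 and 9.53 in Id2 KO. It was higher on both Id2 KO arrays, by 0.79 in the mean (95% interval 0.51 to 1.07; 1.73-fold; adjusted p = 0.0042). Between them the RefSeq gene list has 1 protein-coding gene, Rtn4rl2, with a difference of -0.14 (adjusted p = 0.409). Slc43a2 (LAT4), the other amino acid facilitator of the family, was at 10.56 and 10.77 in WT and at 10.47 and 10.61 in Id2 KO, with overlapping groups and a difference of -0.12 (95% interval -0.35 to 0.10; adjusted p = 0.555).

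Among the Slc36 carriers, Slc36a4 rose and no other passed. Slc36a4 (PAT4), a carrier for proline and tryptophan, was at 7.68 and 7.90 in WT and at 8.29 and 8.37 in Id2 KO. The groups were separate, with the 2 WT arrays farther apart than the 2 Id2 KO arrays. The rise of 0.54 (95% interval 0.32 to 0.75; 1.45-fold; adjusted p = 0.00922) was lost without WT replicate 1 (0.43, adjusted p = 0.0873). Slc36a1 (PAT1), an exporter of small neutral amino acids from lysosomes, differed by -0.13 (95% interval -0.37 to 0.10; adjusted p = 0.538), and Slc36a3 by -0.02. Slc36a2 lay below the filter.

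**Figure D2:**
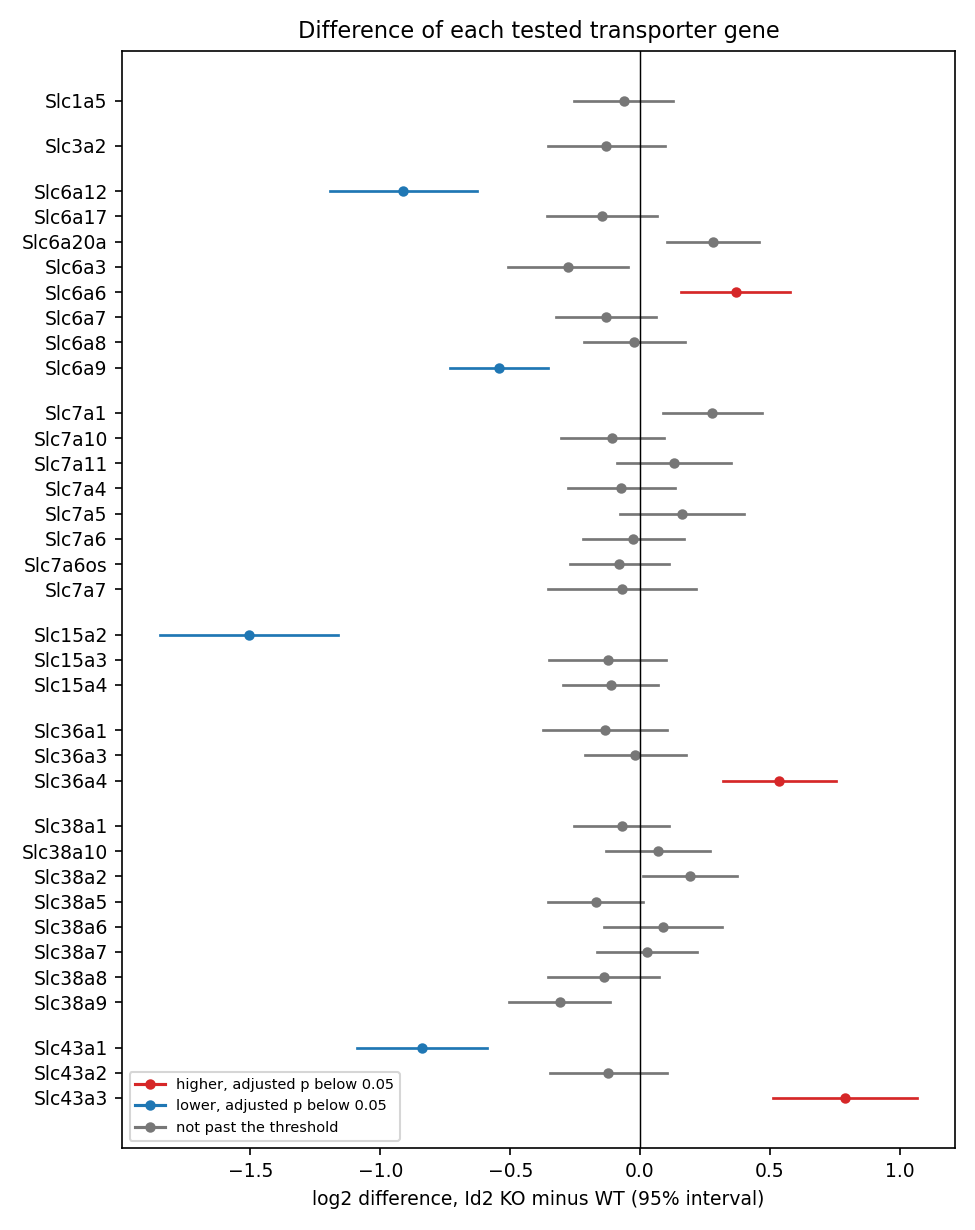
Log2 difference, Id2 KO minus WT (horizontal axis), of the 35 tested transporter genes (rows, grouped by family), with points for the estimate and lines for the 95% interval from limma. Red marks the 3 genes that rose, blue the 4 that fell, led by Slc15a2 at -1.51, and grey the 28 that did not pass.

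The carriers best known for feeding dividing leukocytes did not pass. Slc3a2 (CD98 heavy chain), the partner that brings several Slc7 light chains to the cell surface, was at 11.31 and 11.49 in WT and at 11.36 and 11.17 in Id2 KO. These groups overlapped, with a difference of -0.13 (95% interval -0.36 to 0.10; adjusted p = 0.527). Slc7a5 (LAT1), its light chain for leucine and other large neutral amino acids, was at 8.84 and 8.95 in WT and at 9.19 and 8.92 in Id2 KO. Here Id2 KO replicate 1 was the highest array and replicate 2 lay among the WT values, and the difference of 0.16 (95% interval -0.08 to 0.40) did not pass (adjusted p = 0.445). Slc1a5 (ASCT2), a sodium-coupled exchanger of glutamine and other neutral amino acids, was at 10.55 and 10.50 in WT and at 10.52 and 10.40 in Id2 KO. Its difference of -0.06 (95% interval -0.26 to 0.13; adjusted p = 0.744) lay within the spread of the replicates.

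No gene of the Slc7 family passed in limma among 8 tested, and their differences ran from -0.11 to 0.28. An unadjusted p below 0.05 was found in 1 of the 8, beside 2473 of all 11963 tested genes. Slc7a1 (CAT1), the main importer of arginine and lysine in many cells, was at 8.77 and 8.82 in WT and at 9.14 and 9.01 in Id2 KO. The groups did not overlap, and the difference of 0.28 (95% interval 0.09 to 0.47) did not pass (adjusted p = 0.0884). Slc7a11 (xCT), which takes up cystine in exchange for glutamate, differed by 0.13 (95% interval -0.09 to 0.35; adjusted p = 0.509). The y+L exchanger genes Slc7a6 (-0.03) and Slc7a7 (-0.07), whose products export cationic amino acids in exchange for neutral ones, did not pass. Slc7a7 varied more between the Id2 KO arrays (8.01 and 8.38) than its mean difference. Slc7a4 (-0.07) and Slc7a10 (-0.11) lay at the filter level, and Slc7a6os, opposite Slc7a6, differed by -0.08.

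The sodium-coupled neutral amino acid carriers of the Slc38 family had 8 tested members and no call in limma, with differences from -0.31 to 0.19. Of these 8, 2 had an unadjusted p below 0.05, beside 2473 of all 11963 tested genes. Slc38a9, a lysosomal membrane protein that senses arginine for the growth-controlling kinase complex mTORC1, was at 9.51 and 9.48 in WT and at 9.11 and 9.26 in Id2 KO. Both Id2 KO arrays were lower, but the difference of -0.31 (95% interval -0.50 to -0.12) did not pass (adjusted p = 0.0641). It passed without Id2 KO replicate 2 (-0.38, adjusted p = 0.0381), with renewed quantile normalization (-0.37, adjusted p = 0.0433) and with arrays centred on the tested genes (-0.36, adjusted p = 0.0388). Another Slc38a9 probe set, at 8.54 and 8.50 in WT and at 8.29 and 8.38 in Id2 KO, differed in the same direction by -0.18. Slc38a2 (SNAT2), a carrier induced when amino acids run short, was at 10.59 and 10.65 in WT and at 10.81 and 10.82 in Id2 KO, with separate groups and a difference of 0.19 (95% interval 0.01 to 0.37; adjusted p = 0.211). Slc38a1 (SNAT1), a glutamine importer, was at 11.34 and 11.42 in WT and at 11.32 and 11.29 in Id2 KO, a difference of -0.07 (95% interval -0.25 to 0.11; adjusted p = 0.693). A second Slc38a1 probe set, at 8.07 and 8.11 in WT, was at 7.95 and 7.67 in Id2 KO, a difference of -0.28.

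Slc38a5 (SNAT5), an X-linked glutamine and glycine carrier gene, was at 7.26 and 7.31 in WT and at 7.08 and 7.14 in Id2 KO. Its replicates were close and its groups separate, and the difference of -0.17 (95% interval -0.35 to 0.01) did not pass (adjusted p = 0.275). The lysosomal glutamine and asparagine exporter gene Slc38a7 (0.03), Slc38a6 (0.09), Slc38a8 (-0.14) and Slc38a10 (0.07) did not pass either.

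The 34 members below the filter were mostly carriers of neurons, kidney and gut. They included 6 of 7 Slc1 genes (the glutamate carrier genes Slc1a1, Slc1a2, Slc1a3, Slc1a6 and Slc1a7, and Slc1a4), the heavy chain gene Slc3a1 and 13 of 21 Slc6 genes, which were Slc6a2, Slc6a4, Slc6a5, Slc6a11, Slc6a13, Slc6a14, Slc6a15, Slc6a16, Slc6a18, Slc6a19, Slc6a19os, Slc6a20b and Slc6a21. Of the 16 Slc7 genes, 8 were below it, namely the cationic carrier genes Slc7a2 and Slc7a3, the light chain genes Slc7a8 and Slc7a9, and Slc7a12, Slc7a13, Slc7a14 and Slc7a15. The rest were Slc15a1, Slc15a5, Slc36a2, Slc38a3, Slc38a4 and Slc38a11. Their log2 intensity ran from 4.22 to 6.84 over the 4 arrays, and their mean differences from -0.22 (Slc7a8) to 0.15 (Slc3a1). Differences at such levels were not read, because no background was measured.

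Related genes were counted list by list, beside the 8.04% called over all tested genes. Of 12 tested genes for the sensing of bacterial peptides and nucleic acids, only Tlr3 passed. It encodes a receptor for double-stranded RNA, was also in the cDC1 marker list, and fell by 0.73 (adjusted p = 0.00103). The other 11 did not pass. The largest of those were Irf7 (-0.31), Tlr9 (0.21) and Nod2 (-0.19). Of 8 tested other amino acid or lysosomal carriers, none passed in limma. The largest differences were those of the sialic acid exporter gene Slc17a5 (-0.25, adjusted p = 0.123) and the cystine exporter gene Ctns (-0.16). Of the 8, 1 had an unadjusted p below 0.05, beside 2473 of all 11963 tested genes. Of 33 tested genes of mTORC1 and its amino acid sensors, Castor2, of the arginine sensor family, rose by 0.57 (adjusted p = 0.0184, and 0.149 without WT replicate 1). Rragc, a Rag GTPase gene, fell by 0.32 (adjusted p = 0.0414), a call lost under 7 alternatives, among them each of the 4 with 1 array left out (adjusted p between 0.0522 and 0.19). The other 31 did not pass, among them Castor1 (-0.40), Fnip2 (-0.34) and Sesn2 (-0.28).

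The response to amino acid shortage through the kinase GCN2 and the factor ATF4 had 16 tested genes. Ddit3 (CHOP), a stress transcription factor gene, was at 9.35 and 9.31 in WT and at 8.71 and 8.68 in Id2 KO and fell by 0.63 (adjusted p = 0.00132). Chac1, a glutathione-degrading enzyme gene, fell by 0.44 (adjusted p = 0.0188), while Ddit4, an inhibitor of mTORC1, rose by 0.44 (adjusted p = 0.00886). The call of Chac1 was lost without WT replicate 2 (adjusted p = 0.134) and without Id2 KO replicate 2 (adjusted p = 0.0564), and that of Ddit4 without WT replicate 1 (adjusted p = 0.0621) and without WT replicate 2 (adjusted p = 0.0645). The other 13 did not pass, including Atf4 itself (-0.23, adjusted p = 0.157) and Cebpb (-0.26, adjusted p = 0.0995). None of 17 tested cytosolic aminoacyl-tRNA synthetase genes, which load amino acids onto tRNA, passed in limma. The median difference was 0.09, led by Wars (0.31, adjusted p = 0.111), Vars (0.25) and Kars (0.22). Of the 17, 2 had an unadjusted p below 0.05, beside 2473 of all 11963 tested genes.

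Of 10 tested enzymes of amino acid metabolism, Odc1, the ornithine decarboxylase gene that opens polyamine synthesis, was at 9.63 and 9.61 in WT and at 8.57 and 8.36 in Id2 KO and fell by 1.15 (adjusted p = 1.45e-04). The mitochondrial aspartate aminotransferase gene Got2 rose by 0.34 (adjusted p = 0.0451), a call lost under 7 alternatives, among them without WT replicate 1 (adjusted p = 0.283), without WT replicate 2 (adjusted p = 0.119) and without Id2 KO replicate 1 (adjusted p = 0.187). The other 8, among them Got1 (-0.29), Nos2 (-0.18) and Glul (0.17), did not pass. Of 9 tested genes of cystine use and glutathione, Gsr, the glutathione reductase gene, rose by 0.53 (adjusted p = 0.0178), a call lost without WT replicate 1 (adjusted p = 0.108) and without WT replicate 2 (adjusted p = 0.0799). Hmox1 (-0.44, adjusted p = 0.0511), Gpx4 (0.23), Txnrd1 (0.23) and the remaining 5 did not pass. The called share was 8.33% of the sensing genes, 0% of the other carriers, 6.06% of the mTORC1 genes, 18.8% of the ATF4 and GCN2 genes, 0% of the synthetase genes, 20% of the enzymes and 11.1% of the cystine and glutathione genes, each a share of 33 or fewer genes. The median differences of these lists lay between -0.10 and 0.09, beside 0.01 over all tested genes.

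**Figure D3:**
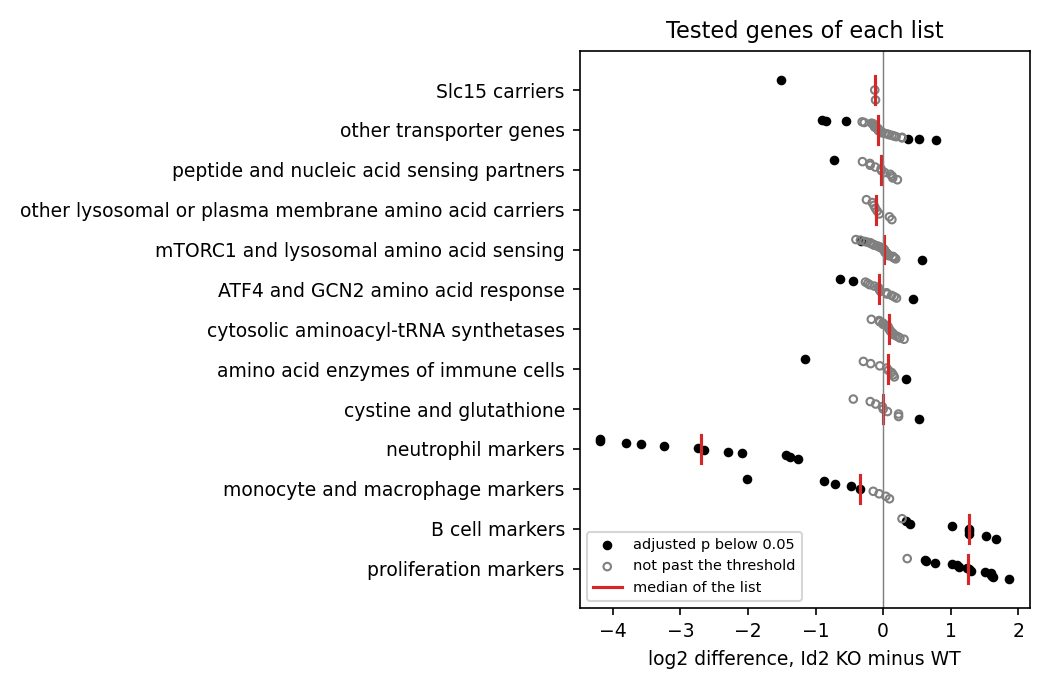
Log2 difference, Id2 KO minus WT (horizontal axis), of each tested gene in the peptide carriers, the other transporter genes, the lists of related genes and the marker lists of other cells and of proliferation (rows). Filled points passed an adjusted p of 0.05, open points did not, and red lines are list medians, which run from -2.69 for neutrophil markers to 1.27 for B cell markers.

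With 1 array left out, 1 group holds a single array, so such a fit cannot show that a call is independent of single arrays. Slc15a2, Slc6a12, Slc43a1, Slc6a9 and Slc43a3 kept their direction with each of the 4 arrays left out in turn. Over those and the other alternatives their differences ran from -1.73 to -1.28 for Slc15a2, from -1.11 to -0.72 for Slc6a12, from -0.999 to -0.681 for Slc43a1, from -0.60 to -0.50 for Slc6a9 and from 0.62 to 0.96 for Slc43a3. Slc36a4 and Slc6a6 also kept their direction, but the call of each was lost in 1 or more fits with an array left out, as given above.

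**Figure D4:**
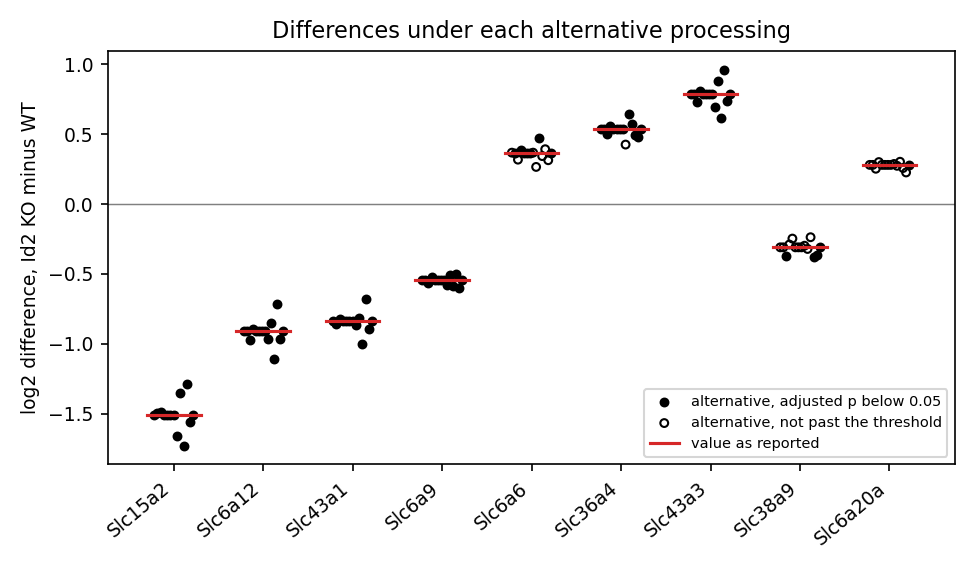
Log2 difference, Id2 KO minus WT (vertical axis), of the 7 changed transporter genes and of Slc38a9 and Slc6a20a (horizontal axis), with the reported value as a red line and each alternative processing as a point, filled where the adjusted p was below 0.05. Points of Slc15a2, Slc6a12, Slc43a1, Slc6a9 and Slc43a3 are all filled, those of Slc36a4 are filled except without WT replicate 1, and Slc6a6 lies between 0.27 and 0.47 with open points among them.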

How the data were processed

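RNA from sorted splenic cDC2 was amplified with a NuGen whole-transcriptome system and hybridised to 4 Affymetrix arrays, per the labels' protocols. The authors deposited 1 linear intensity per probe set, made with Affymetrix Expression Console and RMA, per the submitters' processing notes. RMA equalises the arrays, so a shift shared by most genes is largely removed. Median intensities were 134 and 130 (WT) and 128 and 132 (Id2 KO).

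Log2 was taken without a pseudocount. Of 28853 probe sets, 21789 had 1 symbol in the platform annotation, and the brightest represented each gene. The 69 members had 71 probe sets, and all 69 matched the GRCm38.p6 gene table. Linear models were fitted in limma 3.58.1 under R 4.3.3 with moderated variances (2 residual and 6.77 prior degrees of freedom), two-sided. The 95% intervals were not adjusted for the number of genes. A run on simulated data gave every gene the same spread, unlike measured genes, so it checked only the code. Precision is limited by having 2 arrays per group.

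The members and the 16 gene lists were chosen with earlier results of these data known. Values on all arrays were given for Slc15 genes, Slc3a2, Slc7a5, Slc1a5, changed members and the 6 next largest differences; of other lists, called genes and up to 3 more. Other genes named beside these, such as Rtn4rl2 and the cell markers, were chosen after values were seen. No list was given a test of its own. Alternatives were another filter, scaling, probe set rule, variance trend, no X- or Y-linked genes, a replicate block and each array left out.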

Additional observations from a re-analysis of the deposited data

How the results depend on the processing

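Of all tested genes 962 were called, and leaving out 1 array gave between 459 (without WT replicate 1) and 1171 calls, with 627 without WT replicate 2. Leaving out 1 array gave between 1 and 3 transporter genes that rose, between 4 and 6 that fell, and a median difference between -0.0764 and -0.0433. With the filter at the 60th percentile 2 transporter genes fell, since Slc15a2 and Slc43a1 were then not tested. The median difference over the members, -0.07 as reported beside 0.01 over all tested genes, was -0.11 beside -0.02 with renewed quantile normalization and -0.13 beside -0.05 with arrays centred on the tested genes, an alternative chosen after seeing the data. The deviations of same-numbered arrays had r = -0.14 over tested genes. With 2 arrays per group this correlation cannot show whether replicate numbers pair the arrays. The replicate block gave 684 calls, with 2 transporter genes higher and 4 lower. Under it the calls of Slc6a6 (adjusted p = 0.101), Chac1 (0.0609), Got2 (0.112) and Rragc (0.101) were lost. The crossed pairing, added after seeing the data, gave 1380 calls, with 4 higher and 5 lower. No called transporter difference changed sign under the alternatives run, while 8 members without a call changed sign under at least 1 of them. Low intensity limits the members near the filter level.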
